A study of Mus musculus with 5 samples.

Results

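The regulators and effectors of epithelial-mesenchymal transition form a group of 10 genes, made up of the transcription factors Snai1, Snai2, Twist1, Twist2, Zeb1, Zeb2 and Prrx1 and the mesenchymal genes Vim, Cdh2 and Fn1. Membership goes by name, not by any reading, and each gene was read from a probe set annotated to that gene alone, taking the brightest over the 5 arrays where there were several. In this way 9 of the 10 were measured, among 22180 genes in all. The probe sets that name Zeb2 also name another gene, so Zeb2 has no value here.

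In an epithelial-mesenchymal transition, epithelial cells lose cell-cell junctions and gain motility and matrix production. SNAI and ZEB proteins are zinc-finger repressors that bind E-boxes, short DNA motifs, in promoters of epithelial genes such as Cdh1, which encodes E-cadherin. TWIST proteins are basic helix-loop-helix factors, and PRRX1 is a homeodomain factor of mesenchymal cells. In the mammary gland, vimentin, fibronectin and several of these factors are also made by stromal fibroblasts, and Snai2 and Vim are known in the basal epithelial layer, so their signal in a tissue extract does not by itself stand for a transition.

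The arrays hold RNA of mammary epithelial cells from inguinal glands of mice aged 4 weeks, on a congenic FVB/NJ background. The 2 knockout arrays come from mice labelled MMTV-Cre+/Mmp14(f/f), in which a mammary tumour virus promoter drives Cre recombinase in the epithelium and both copies of Mmp14, a membrane-bound matrix metalloproteinase, are floxed. The 3 wild-type arrays come from Mmp14(f/f) littermates, which carry the same floxed alleles without Cre, so both groups share those alleles and only the knockout carries the transgene. Per the labels' protocols, the gland without its lymph node was digested with collagenase, and stromal cells were removed by differential centrifugation. The arrays are labelled as biological replicates, and no label says whether an array stands for a single mouse or a pool, so the tests measure the spread among these 5 samples.

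Epithelial genes were bright on every array. Epcam, an epithelial adhesion molecule, read 10.10 and 9.98 log2 units on the knockout arrays and 9.98, 9.98 and 9.98 on the wild-type arrays. Krt8, a luminal keratin, lay at 11.41 ± 0.10 (SD, n = 2) in the knockout and 11.42 ± 0.00 (SD, n = 3) in the wild type. Fibroblast genes also gave signal: 0 of 19 measured fibroblast markers lay below the median gene. They ran from Fap, brighter than 64.4% of genes, to very bright ones. Dcn, a matrix proteoglycan of fibroblasts, was at 10.59 ± 0.16 (SD, n = 2) against 10.42 ± 0.22 (SD, n = 3). The preparations therefore carry the label's epithelial markers and stromal markers side by side. Mmp14 itself read 7.98 and 7.28 in the knockout and 8.15, 8.67 and 7.75 in the wild type, with overlapping groups and a difference of -0.56 ± 0.39 (SE; limma adjusted p = 0.919).

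Sequence context is shown for the DNA motif that SNAI and ZEB proteins recognise and for the microRNAs known to repress Zeb1 and Zeb2. The E-box was searched as CACCTG or CAGGTG, which are the same site on opposite strands, in the 250 bases before each gene start in the RefSeq table of GRCm38.p6. Of 32851 such windows, 17.2% held it, and 19.4% of the 27025 genes had it in a window. Windows were listed for Snai1, Twist1, Twist2, Zeb2, Vim and Prrx1 among the 10 genes. Only the window of Snai1 held the motif, 1 of 9 windows (11.1%) and 1 of 6 genes (16.7%). These shares are no higher than those over all windows and genes. Snai1 protein is known to act on its own promoter, which this match does not test. Snai2, Zeb1, Cdh2 and Fn1 were not matched. Among 30 windows of the list of epithelial genes and repressors of the transition, 14 (46.7%) held it, from 12 of 21 matched genes, among them Epcam, Cldn4, Cldn7, Ocln, Crb3 and Elf3. These matches describe letters in a window, and they are not measured sites. The Snai1 window lies at chr2:167537945-167538194 (plus strand), with the E-box, in capitals, from 126 to 121 bases before the start. The Epcam window lies at chr17:87635729-87635978 (plus strand), with E-boxes from 187 to 182 and from 19 to 14 bases before the start. Both are shown 5′ to 3′ as an example of a regulator and an epithelial gene that carry the motif.
Snai1: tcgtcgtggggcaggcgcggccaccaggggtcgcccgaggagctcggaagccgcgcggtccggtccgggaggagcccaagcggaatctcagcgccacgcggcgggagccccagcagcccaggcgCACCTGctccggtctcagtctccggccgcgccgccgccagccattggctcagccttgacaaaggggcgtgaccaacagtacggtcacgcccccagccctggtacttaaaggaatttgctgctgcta
Epcam: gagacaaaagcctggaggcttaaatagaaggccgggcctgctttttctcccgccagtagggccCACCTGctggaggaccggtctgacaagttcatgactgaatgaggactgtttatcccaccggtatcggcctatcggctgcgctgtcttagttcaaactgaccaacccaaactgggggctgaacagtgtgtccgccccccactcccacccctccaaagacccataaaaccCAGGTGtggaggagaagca

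The miR-200 family and miR-205 keep Zeb1 and Zeb2 low in epithelial cells. Their mature sequences from RefSeq are shown 5′ to 3′ with the seed, bases 2 to 8, in capitals, because the seed sets which transcripts a microRNA pairs with. miR-200b, miR-200c and miR-429 share the seed AAUACUG. miR-200a and miR-141 share AACACUG, and miR-205 has its own.
mmu-miR-200b-3p: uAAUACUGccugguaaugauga
mmu-miR-200c-3p: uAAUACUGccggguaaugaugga
mmu-miR-429-3p: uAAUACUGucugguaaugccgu
mmu-miR-200a-3p: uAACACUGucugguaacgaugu
mmu-miR-141-3p: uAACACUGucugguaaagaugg
mmu-miR-205-5p: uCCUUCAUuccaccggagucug
Of the genes for these microRNAs, 5 have a probe set of their own, which does not separate the mature arms from the precursor. These genes were added after their values were seen. The probe set of Mir200b read 3.47 on all 5 arrays. That of Mir200c read 4.00 on knockout 1 and 5.46 on knockout 2, while wild type 1, 2 and 3 read 3.95, 4.00 and 3.92. Only knockout 2 stood apart (difference 0.78 ± 0.49, SE; limma adjusted p = 0.919). Mir205 was at 3.73 and 3.02 against 3.50, 3.68 and 3.51, with knockout 2 the lowest and knockout 1 the highest. Mir200a and Mir141 had differences of -0.02 and 0.02. Mir141, Mir200b, Mir205 and Mir200c were brighter than 11.6%, 30.35%, 30.8% and 47.6% of genes, and Mir200a than 55.05%. Without detection calls, signals as dim as those of Mir141, Mir200b and Mir205 cannot be told from background.

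The comparison of knockout with wild type asks whether loss of Mmp14 in the epithelium goes with a change in these regulators. None of the 9 measured genes passed limma's test, whose adjusted p over all genes was between 0.919 and 1. Their differences, knockout minus wild type, ran from -0.03 for Zeb1 to 0.27 for Cdh2, with a median of 0.14, where the median over all genes was 0.00. The mean was higher in the knockout for 7 and lower for 2, while 48.4% of all genes had a higher mean. Over all 22180 genes limma called 0% (0 genes) at an adjusted p of 0.05, and 1.3% (288 genes) had an unadjusted p under 0.05. Of the 9 genes, 0 did, with unadjusted p between 0.127 and 0.932. Each array reading below is a log2 signal. Signals of different genes come from different probes and are not set against each other.

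**Figure D1:**
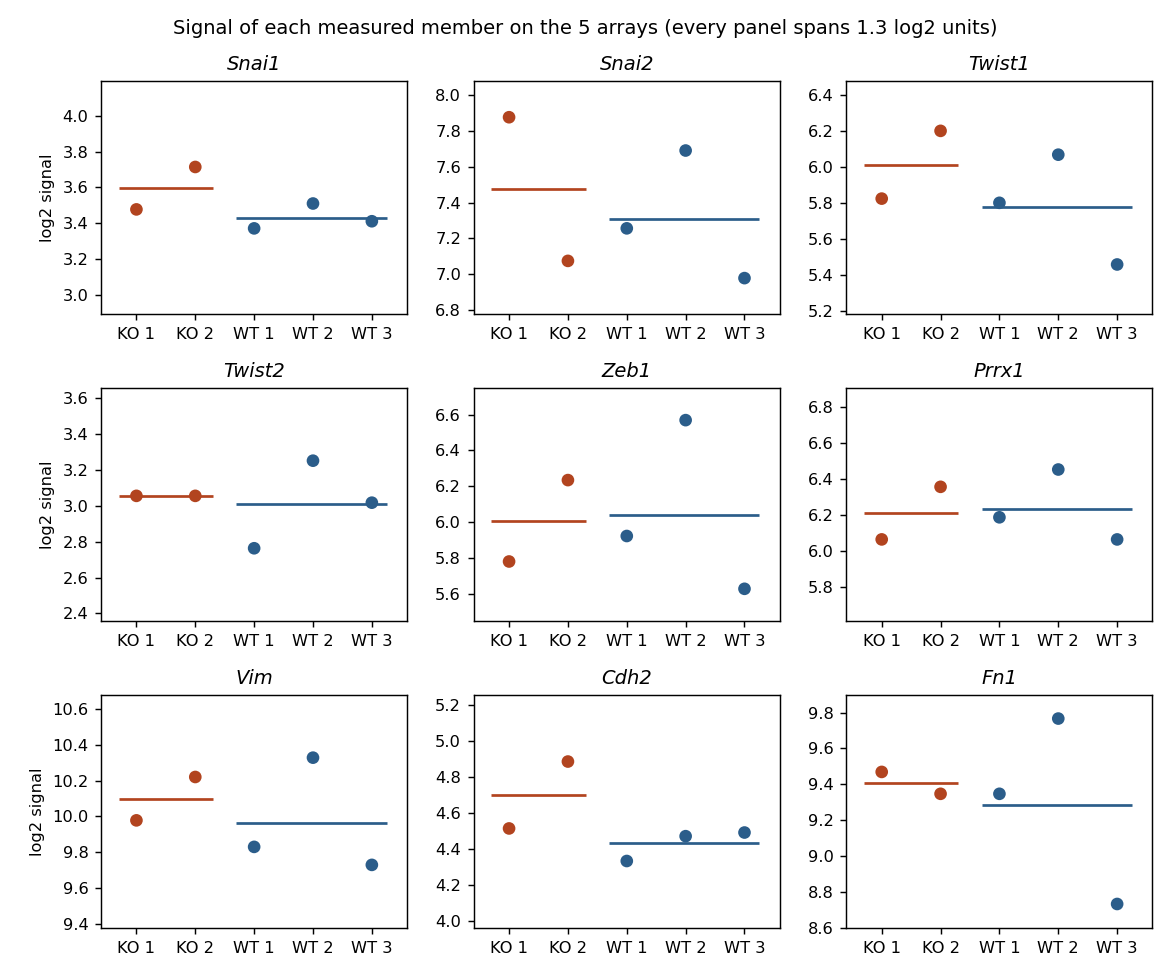
Log2 signal of the 9 measured genes on the 2 knockout (KO, red) and 3 wild-type (WT, blue) arrays, each point an array and each line a group mean; the vertical scale is shifted per gene and always spans 1.3 log2 units. Wild type 2 is the highest array for 5 genes and wild type 3 the lowest for 6, and only for Cdh2 do the groups not overlap.

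Snai1, the SNAIL repressor, read 3.48 and 3.71 on knockout 1 and 2, against 3.37, 3.51 and 3.41 on wild type 1, 2 and 3. Knockout 2 was the highest array, and knockout 1 lay below wild type 2, so the groups overlapped. The difference was 0.16 ± 0.09 (SE; limma adjusted p = 0.919), with a 95% interval from -0.10 to 0.43. Snai1 was dim, brighter than 31.0% of genes, and without detection calls such a signal cannot be told from background.

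Snai2, the SLUG repressor of basal mammary cells, gave the widest gap between the knockout arrays, at 7.88 and 7.07. The wild-type arrays read 7.26, 7.69 and 6.98. Knockout 1 was thus the highest of the 5 arrays and knockout 2 the lowest but for wild type 3. The difference of 0.17 ± 0.36 (SE; limma adjusted p = 0.955) had an interval from -0.86 to 1.19. It was 0.57 without knockout 2 and -0.23 without knockout 1, so its direction rested on knockout 1.

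Twist1 read 5.83 and 6.20 in the knockout and 5.80, 6.07 and 5.46 in the wild type. Knockout 2 was the highest array and wild type 3 the lowest, and knockout 1 lay beside wild type 1. The difference was 0.24 ± 0.24 (SE; limma adjusted p = 0.919), with an interval from -0.45 to 0.92. It was 0.05 without knockout 2 and 0.43 without knockout 1. Twist2, its close relative, read 3.06 on both knockout arrays and 2.76, 3.25 and 3.02 on the wild-type arrays. The knockout arrays lay between wild type 2 and wild type 3, and the difference was 0.04 ± 0.16 (SE), or -0.08 without wild type 1. Twist2 was brighter than only 18.0% of genes, and its equal knockout values to 6 decimals are a tie of the deposited values.

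Zeb1 read 5.78 and 6.23 in the knockout and 5.92, 6.57 and 5.63 in the wild type. The wild-type arrays spanned 0.94 units and enclosed both knockout arrays. The difference of -0.03 ± 0.35 (SE; limma adjusted p = 1) had an interval from -1.04 to 0.98, or 0.485-fold to 1.97-fold. It turned to 0.19 without knockout 1 and to 0.23 without wild type 2. Prrx1 read 6.06 and 6.36 against 6.19, 6.45 and 6.06, and here too the wild-type arrays enclosed the knockout arrays. Its difference was -0.02 ± 0.17 (SE; limma adjusted p = 1), with an interval from -0.50 to 0.45, and it turned to 0.12 and 0.09 without the same arrays.

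Vim, the intermediate filament of mesenchymal and basal cells, read 9.98 and 10.22 in the knockout and 9.83, 10.33 and 9.73 in the wild type. Wild type 2 was the highest array and wild type 3 the lowest. The difference was 0.14 ± 0.23 (SE; limma adjusted p = 0.933), or 1.10-fold with an interval from 0.700 to 1.73. With 1 array left out it ranged from 0.016 without knockout 2 to 0.32 without wild type 2. A second probe set of Vim read 9.10 and 9.27 against 8.92, 9.68 and 8.59, which is the same order of arrays, with a difference of 0.12.

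Fn1, fibronectin, read 9.47 and 9.35 in the knockout and 9.35, 9.77 and 8.73 in the wild type. The wild-type arrays spanned 1.03 units and the knockout arrays 0.12. The difference was 0.13 ± 0.35 (SE; limma adjusted p = 0.976), and it turned to -0.15 without wild type 3. Knockout 2 and wild type 1 had the same value to 6 decimals.

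Cdh2, N-cadherin, whose gain in place of E-cadherin is a classic mark of the transition, had the largest difference of the 9 genes. It read 4.51 and 4.89 in the knockout and 4.33, 4.47 and 4.49 in the wild type. Both knockout arrays lay above the wild-type arrays, knockout 1 by a margin of 0.02 over wild type 3. The difference of 0.27 ± 0.14 (SE; limma adjusted p = 0.919) did not pass, and its interval ran from -0.12 to 0.66. Without knockout 2 it was 0.08. Such a separation upward occurred for 2.63% of all genes and downward for 2.8%, where 0 of the 9 were seen, and in either direction for 11.1% of the 6930 genes whose 5 values all differ. The other probe set of Cdh2 read 3.85 and 4.10 against 3.85, 3.96 and 3.78, where the groups overlapped and knockout 1 equalled wild type 1. That probe set was the dimmer, and the one used was brighter than only 51.7% of genes. Without detection calls, the height of either over background is not known.

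**Figure D2:**
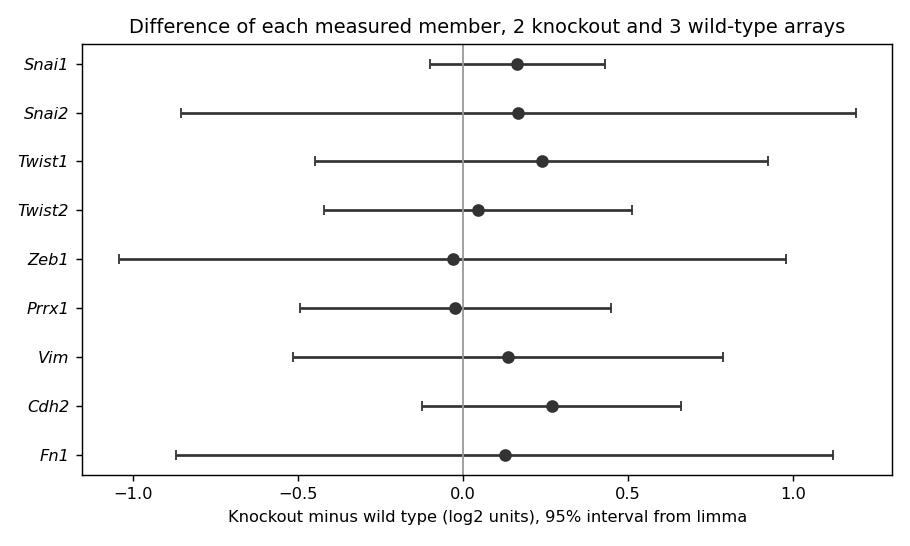
Difference between knockout and wild type (points, log2 units) for the 9 measured genes with limma's 95% interval (bars) from 2 and 3 arrays. All intervals include 0; the widest, for Snai2 and Zeb1, reach past 0.97 on the upper side, and the narrowest, for Snai1, runs from -0.10 to 0.43.

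The spread between arrays was larger for these genes than for most. Their median residual SD was 0.28 log2 units, against 0.08 over all genes. The value over all genes includes many with equal readings, which lower the estimated spread. Of 22180 genes, 6930 have 5 different values, against 7 of the 9. The spread was not set against that of genes of like brightness. Wild type 2 was the highest array for 5 genes, Twist2, Zeb1, Vim, Fn1 and Prrx1. Wild type 3 was the lowest for 6, Snai2, Twist1, Zeb1, Vim, Fn1 and Prrx1. Over the 6930 genes with 5 different values, wild type 2 was the highest for 19% and wild type 3 the lowest for 19.6%. The 7 of the 9 genes without ties, which leave out Twist2 and Fn1, gave 3 and 5. The mean over the 9 genes, relative to its wild-type average, was 0.06 on knockout 1 and 0.18 on knockout 2, while wild type 1, 2 and 3 were at -0.07, 0.29 and -0.22. Both knockout arrays lay inside the wild-type range, and knockout 2 was above knockout 1 for 6 of the 9 genes, as for 49.4% of genes with 5 different values.

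Fibroblast markers varied over the arrays in an order like that of several of these genes. The mean of 19 fibroblast markers relative to wild type was -0.01 on knockout 1 and 0.09 on knockout 2, against -0.09, 0.35 and -0.26 on wild type 1, 2 and 3. Wild type 2 was the highest and wild type 3 the lowest, and the order of all 5 arrays was that of Vim. The summed fibroblast signal lay between 12.88 and 13.06 log2 units in the knockout and between 12.66 and 13.13 in the wild type. Among its genes, Pdgfra, a receptor of mammary fibroblasts, read 7.47 and 6.33 against 6.86, 7.43 and 6.10. It shared with Snai2 the high reading on knockout 1, but most of its list did not. Of the 15 fibroblast markers with 5 different values, 7 were highest on knockout 2 and 6 on wild type 2, and 4 were lowest on knockout 1. Of the 19, 11 had a higher and 8 a lower mean in the knockout, with a median of 0.02. Col6a3, a collagen VI chain, differed by -0.39 ± 0.22 (SE) and Lum, a collagen-binding proteoglycan, by 0.41 ± 0.23 (SE). Col1a1 and Col3a1, fibrillar collagens, differed by 0.27 ± 0.28 and 0.29 ± 0.29 (SE), and the groups of these genes overlapped. In bulk RNA, fewer cells of a type and less RNA per cell cannot be told apart.

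Setting each gene against the mean of the fibroblast markers on the same array narrowed the spread for 6 of the 9. The range of Vim over the 5 arrays went from 0.60 to 0.21, of Zeb1 from 0.94 to 0.42, of Fn1 from 1.03 to 0.49, of Twist1 from 0.74 to 0.39, of Prrx1 from 0.39 to 0.25 and of Twist2 from 0.49 to 0.43. Snai1, Cdh2 and Snai2 did not narrow, with ranges of 0.51, 0.67 and 0.91 after the step. The same step narrowed 14.1% of 6908 other genes with 5 different values, and 25.2% of those that varied at least as much as the least variable of the 9. On this scale Vim was at 0.03 and 0.16 in the knockout and -0.04, 0.01 and 0.03 in the wild type, and knockout 1 lay just under wild type 3. Its difference was 0.10, and those of the 9 genes had a median of 0.10. The part of the fibroblast signal in these values was not tested.

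**Figure D3:**
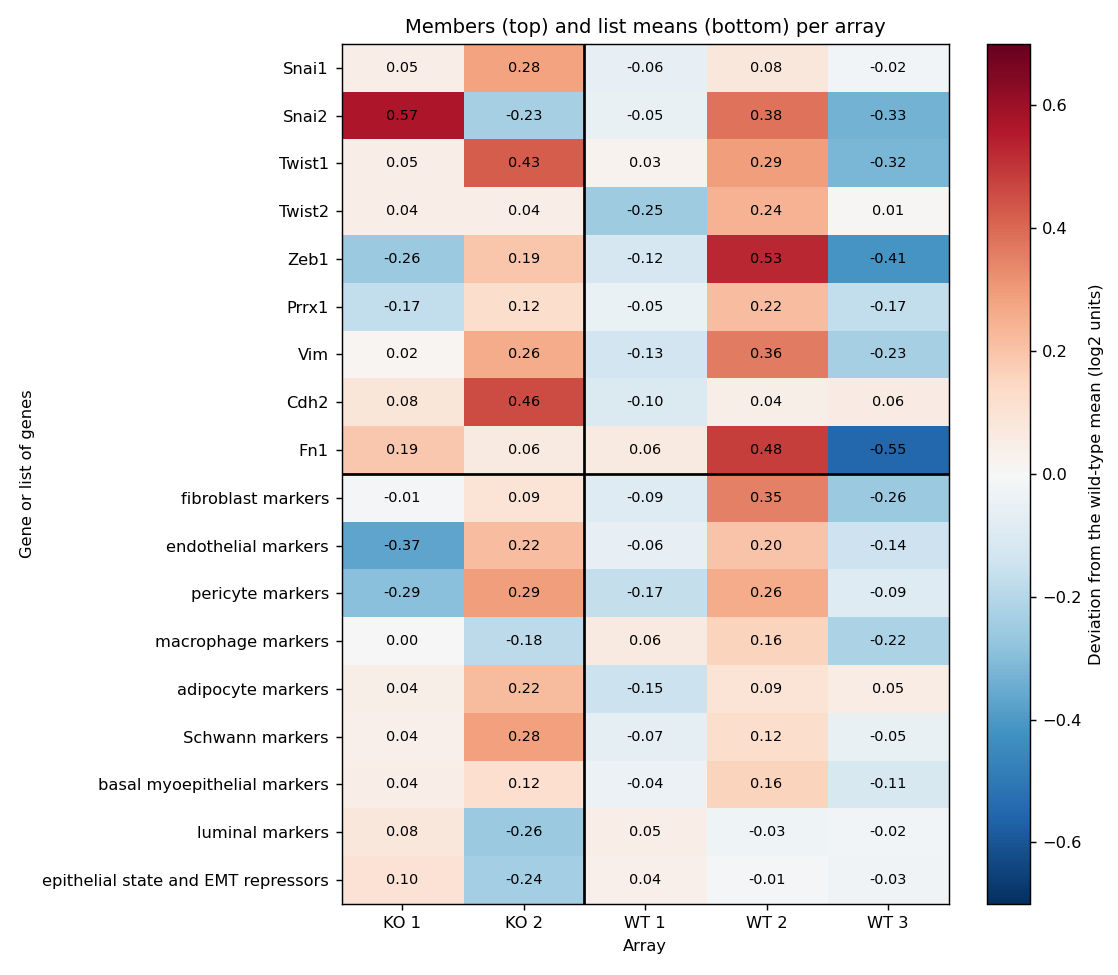
Deviation of each measured gene (top 9 rows) and of the mean of 9 gene lists (bottom) from its own wild-type mean, in log2 units, on 2 knockout (KO) and 3 wild-type (WT) arrays; red is higher and blue lower. Zeb1, Vim, Fn1 and Prrx1 share with the fibroblast and basal lists the high wild type 2 and the low wild type 3, while luminal genes and epithelial genes are lowest on knockout 2.

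Other cell types followed only in part. The endothelial list of 15 genes was at -0.37 on knockout 1 and 0.22 on knockout 2, against -0.06, 0.20 and -0.14 on the wild-type arrays. The pericyte list of 11 genes split the knockout arrays in the same way, at -0.29 and 0.29. In the endothelial list, Kdr, a VEGF receptor, differed by -0.22 ± 0.13 (SE) and Plvap, of fenestrated vessels, by -0.41 ± 0.27 (SE). Of the 9 genes, 6 were lower on knockout 1 than on knockout 2, as were 49.4% of genes with 5 different values. The gap was 0.45 for Zeb1, 0.38 for Twist1, 0.37 for Cdh2, 0.29 for Prrx1 and 0.24 each for Vim and Snai1. Among genes with 5 different values, knockout 1 was the lowest array for 10 of 10 endothelial and 6 of 8 pericyte markers. It was the lowest for 0 of 7 of the genes studied here. Macrophage markers were at 0.00 and -0.18 against 0.06, 0.16 and -0.22. Schwann cell markers were at 0.04 and 0.28 against -0.07, 0.12 and -0.05, and adipocyte markers at 0.04 and 0.22 against -0.15, 0.09 and 0.05. Of the lists of other cell types, 3 of 11 pericyte, 3 of 13 macrophage, 3 of 9 adipocyte, 4 of 7 Schwann and 1 of 15 endothelial genes lay below the median gene. Summed endothelial signal was between 10.35 and 11.01 log2 units in the knockout and between 10.61 and 11.08 in the wild type. For pericytes these ranges were 10.21 to 11.00 and 10.39 to 10.95, and for macrophages 9.85 to 10.30 and 9.79 to 10.38. Setting each gene against the endothelial or the pericyte list narrowed the spread for 5 of the 9 in each case. These steps narrowed 11.2% and 10.8% of other genes with 5 different values. Of those that varied at least as much as the least variable of the 9, they narrowed 20.2% and 19.7%. The part of these cell types in the values of the 9 genes was not tested.

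The basal myoepithelial list, an epithelial source of Vim and Snai2, had the same array order as the fibroblast list. Its 18 genes averaged 0.04 and 0.12 on the knockout arrays and -0.04, 0.16 and -0.11 on the wild-type arrays. Against this list all 9 genes narrowed, Vim to a range of 0.33 and Zeb1 to 0.68, as did 26.9% of 6911 other genes with 5 different values and 39.9% of the more variable ones. Acta2, smooth muscle actin of myoepithelial cells and pericytes, read 9.75 and 9.87 against 9.45, 10.05 and 9.50. Of the 18 basal genes 13 had a higher and 5 a lower mean in the knockout, with a median of 0.08. Pcp4, a calmodulin-binding peptide of this list, went against most of it. It was lower in the knockout mean by 0.89 ± 0.32 (SE; limma adjusted p = 0.919). Against the luminal list only Snai2 narrowed, from 0.90 to 0.80, where 28.7% of other genes and 41% of the more variable ones did. Of the 16 measured luminal genes 3 had a higher and 13 a lower mean in the knockout, with a median of -0.05. Esr1, the oestrogen receptor, was among the 3 and differed by 0.14 ± 0.06 (SE). Ltf, lactoferrin, differed by -0.48 ± 0.26 (SE).

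Likeness over the 5 arrays was measured as the mean absolute difference of standardised readings, over 116 genes of the other lists with 5 different values and for the 7 genes brighter than the median gene. The 3 nearest are given for each. Prrx1 was nearest to Dpt, dermatopontin, a matrix protein (0.04), and then to the endothelial genes Eng (0.15) and Emcn (0.17). Vim was nearest to Mbp, a myelin gene (0.08), Col6a1, a collagen VI chain (0.11), and Tagln, an actin-binding protein of smooth muscle (0.18). Zeb1 was nearest to Col6a2 (0.19), Dpt (0.20) and Emcn (0.24). The nearest to Twist1 were Col3a1 (0.26), the epithelial factor Klf4 (0.28) and Mmp2 (0.29). Snai2 was nearest to Ccn1, a matrix-associated signalling protein (0.14), Pdgfra (0.19) and Smad3 (0.20). The nearest to Fn1 were Sox4, a transcription factor (0.15), the basal keratin Krt14 (0.26) and Id2 (0.30). Cdh2 was nearest to Mylk, myosin light chain kinase (0.23), Hmga2 (0.29) and Cdh19, a Schwann cell cadherin (0.30). The neighbours thus came from fibroblast, endothelial, basal, epithelial and other lists. With 5 arrays these are descriptions of order and size.

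Among other genes of the pathway, none passed limma's test. The 30 epithelial genes and repressors of the transition had a median difference of -0.06, with 12 higher and 18 lower in the mean. Cdh1 read 10.42 and 10.35 in the knockout and 10.38, 10.26 and 10.47 in the wild type. The groups overlapped, and the difference of 0.01 ± 0.07 (SE) was smaller than the spread between arrays. Esrp1, a splicing regulator of epithelial cells, read 8.51 and 7.95 against 8.54, 8.40 and 8.44, so that only knockout 2 was low. Esrp2, its relative, followed at 7.04 and 6.62 against 7.04, 7.04 and 7.18. Grhl2, a transcription factor that holds the epithelial state, differed by -0.13 ± 0.08 (SE), and Ovol2, a repressor of Zeb1, by 0.01 ± 0.04. Marveld3 and Cldn4, both of tight junctions, differed by -0.15 ± 0.02 and 0.09 ± 0.03 (SE) without overlap of the groups, each with a limma adjusted p of 0.919. Of the 30, 3 (10%) had groups that did not overlap, where 5.43% of all genes and 11.1% of those with 5 different values did. The mean of the list was 0.10 on knockout 1 and -0.24 on knockout 2, against -0.03 to 0.04 on the wild-type arrays.

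The other transcription factors tied to the transition, 21 measured, had a median of 0.03. Hmga2, a chromatin protein upstream of Snai1 and Twist1, read 4.37 and 4.57 against 4.08, 4.17 and 4.30. Both knockout arrays lay above the wild type, and the difference was 0.29 ± 0.10 (SE; limma adjusted p = 0.919). It was the 1 of the 21 whose groups did not overlap, where 5.43% of all genes and 11.1% of those with 5 different values did. Hmga2 was brighter than 48.1% of genes, and 9 of the 21 lay below the median gene. Foxc1, a forkhead factor, differed by 0.03 ± 0.02 and Tbx2, a T-box repressor, by 0.10 ± 0.06 (SE). Tbx2 was brighter than only 23.0% of genes, so its signal cannot be told from background. It had the same value on knockout 1, wild type 2 and wild type 3.

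Of the 22 measured mesenchymal effectors 18 had a higher mean in the knockout, with a median of 0.04, while 48.4% of all genes had a higher mean. Axl, a receptor tyrosine kinase, read 6.87 and 7.21 against 6.43, 6.89 and 6.49, and wild type 2 lay above knockout 1. Tpm2, a tropomyosin, read 8.98 and 9.02 against 8.86, 8.96 and 8.84, with no overlap and a difference of 0.11 ± 0.04 (SE). Mmp2 and Mmp3, matrix metalloproteinases made largely by stromal cells, differed by 0.46 ± 0.27 and 0.77 ± 0.46 (SE) with overlapping groups. None had a limma adjusted p under 0.919. The list mean was 0.07 and 0.16 on the knockout arrays and -0.06, 0.25 and -0.19 on the wild-type arrays, in the array order of the fibroblast list.

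TGF-beta is the best known inducer of the transition. The list of 17 genes holds its ligands, receptors, latency-binding proteins, SMADs and SMAD corepressors, and the related ligands Bmp4, Bmp7 and Inhba. Of these 8 were higher and 9 lower in the mean, and the median was -0.04. Bmp7, a ligand that opposes the transition, read 5.69 and 5.51 against 5.82, 5.85 and 5.69, a difference of -0.19 ± 0.08 (SE; limma adjusted p = 0.919). Skil, a SMAD corepressor, differed by -0.08 ± 0.05, Tgfbr1, a receptor, by 0.06 ± 0.04 and Smad7, an inhibitor of the pathway, by 0.04 ± 0.03 (SE).

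The array numbers in the labels fall into 2 runs of consecutive numbers, and no label says what a run stands for. Run 1 holds knockout 1 with wild type 1 and 2, and run 2 holds knockout 2 with wild type 3. Within run 1 the 9 genes were divided, 4 higher and 5 lower in the knockout, with a median of -0.09. Within run 2, from 1 array per genotype and so without a test, all 9 were higher, with a median of 0.40. Over the genes with 5 different values the share higher in the knockout was 50.2% in run 1 and 49.1% in run 2. Zeb1 was at -0.46 in run 1 and 0.61 in run 2, Twist1 at -0.11 and 0.74, Vim at -0.10 and 0.49, Fn1 at -0.09 and 0.61, and Prrx1 at -0.26 and 0.29. These 5 genes had opposite directions in the runs. Snai1 (0.04 and 0.30), Snai2 (0.40 and 0.10), Cdh2 (0.11 and 0.40) and Twist2 (0.05 and 0.04) were higher in the knockout in both. The fibroblast list was at -0.14 in run 1 and 0.36 in run 2, the endothelial list at -0.44 and 0.36, and the luminal list at 0.07 and -0.24. The basal myoepithelial list was at -0.01 and 0.23, and the macrophage list at -0.11 and 0.04. Mesenchymal effectors were at -0.02 and 0.35, so their list was higher in the knockout in run 2 only. The higher readings in run 2 thus stood beside higher fibroblast, endothelial and basal and lower luminal markers in the same pair of arrays. Whether they are linked was not tested.

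**Figure D4:**
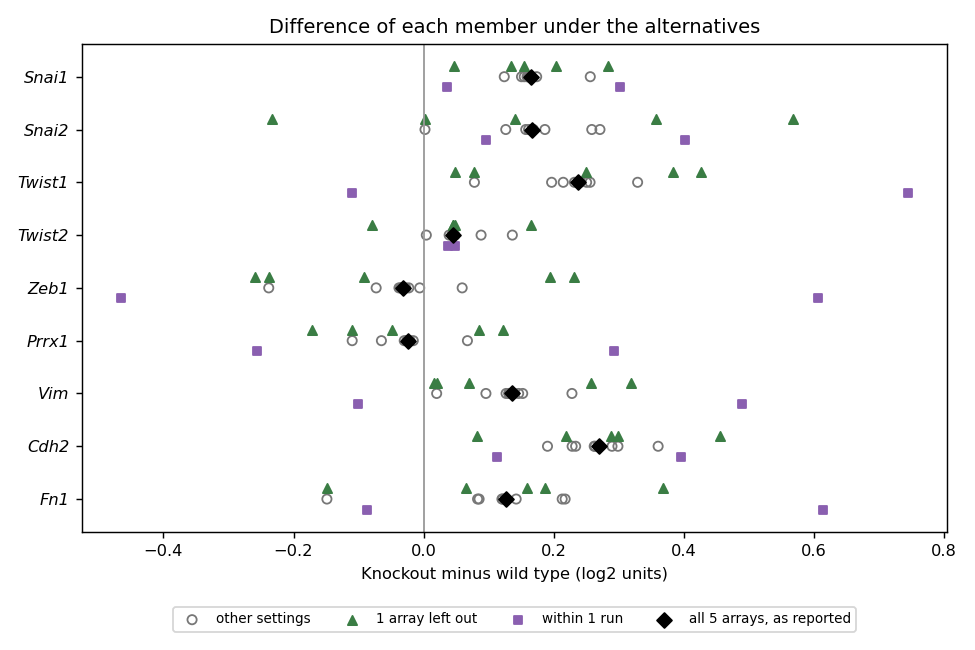
Difference between knockout and wild type (log2 units) for the 9 measured genes with all 5 arrays (black diamonds), with 1 array left out (green triangles), within 1 run (purple squares) and under the other settings (open circles). Snai1 and Cdh2 stay above 0 in every setting shown, between 0.04 and 0.30 and between 0.08 and 0.46, while Zeb1 runs from -0.46 to 0.61.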

How the data were processed

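Each probe set has a log2 signal on each array, as deposited by the authors. RMA and limma are named, without a version, in the submitters' processing notes, and the sources used here give no array model, library files or build. Of 41345 probe sets, 23521 name 1 gene, 1814 name several and 16010 are not listed in the platform annotation. Only the first kind was used, 1 probe set per gene with the highest mean, which left 22180 genes. Some deposited values are equal between arrays, which lowers the estimated spread of those genes. Differences were estimated by limma 3.58.1 (R 4.3.3) (two-sided, no covariate) and adjusted by Benjamini-Hochberg over all genes at 0.05; the fit was tested on simulated data. Array medians lay between 4.24 and 4.29, no detection calls were used, and precision is limited by having only 5 arrays. The genes and lists were chosen with earlier results of these data known. From other lists, genes were named among the 4 with the largest moderated t, not always all of them, with a few set markers; Krt8, Acta2 and the microRNA genes were named after their values were seen. Alternatives covered scaling, dim genes, probe sets, variance model, array weights, run, replicate number, ties and arrays left out.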

Additional observations from a re-analysis of the deposited data

How the results depend on the processing

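Of 185 alternative values of the 9 genes, 176 had a test and 0 of these passed. Of the 185, 15 turned direction, in 7 of the 9 genes. Some settings, such as those of the variance model, change the test but not the difference, so they could not turn a direction. Zeb1 turned to 0.059 centred on luminal markers, 0.19 without knockout 1, 0.23 without wild type 2 and 0.61 within run 2. Prrx1 turned to 0.067, 0.12, 0.085 and 0.29 in the same settings. Within run 1 Twist1 was -0.11, Vim -0.10 and Fn1 -0.088. Fn1 was -0.15 without wild type 3 and with the replicate block. Snai2 was -0.23 without knockout 1, and Twist2 -0.079 without wild type 1. With 1 array left out, Snai1 ranged from 0.046 to 0.28, Twist1 from 0.049 to 0.43, Vim from 0.016 to 0.32, Cdh2 from 0.082 to 0.46, Snai2 from -0.23 to 0.57, Twist2 from -0.079 to 0.17, Zeb1 from -0.26 to 0.23, Fn1 from -0.15 to 0.37 and Prrx1 from -0.17 to 0.12. The causes were not tested. Leaving out 1 array gave 0 to 1757 called genes over all genes (1757 without knockout 1, 835 without knockout 2, where the lone knockout array is assumed to vary like the wild type). Centring on fibroblast markers gave 10 called genes and on luminal markers 14, in place of 0, after a shift of the median gene of -0.04 and 0.09. The replicate block, by the number in the labels, gave 0 called genes. Against each wild-type array, the correlations of knockout 1 and knockout 2 were equal in size and opposite in sign. With wild type 1 they were 0.245 and -0.245, and with wild type 3 they were -0.2615 and 0.2615. With 2 knockout arrays such values cannot show whether the numbers pair the arrays, and the numbers were not taken to do so. Dim signals and 5 arrays limit what could be detected.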
